A study of Mus musculus with 9 samples.

Results

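Chemokines are small secreted proteins that guide migrating cells by binding receptors coupled to G proteins. The 9 chemokine genes described here are Ccl2, Ccl3, Ccl4, Ccl7, Cxcl1, Cxcl10, Cxcl12, Cxcl14 and Cx3cl1. They were taken by name, with every probe set that the platform annotation assigned to 1 of them alone, which gave 13 of the 22626 probe sets on the array without its controls and 9 of the 12393 genes so named. The genes were chosen by their biology with the differences between all 3 groups already known from these arrays, and Ccl3 was picked out by its own differences. Levels and differences of the 9 genes are therefore a description and support nothing beyond themselves. Counts of them from a fit of all probe sets, given below, are no test of these genes.

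The arrays held laser-cut motor neurons of the lumbar spinal cord from mice killed at 13 days of age, with 3 animals in each of 3 groups and 1 array per animal. The groups were SMA mice transplanted with NSC (the study is known to have used neural stem cells), transgenic SMA mice given vehicle, and wild-type mice given vehicle, all operated on at postnatal day 1. In spinal muscular atrophy (SMA), a shortage of the SMN protein leads motor neurons to degenerate. The labels do not give the alleles of the SMA model, the amount or origin of the transplanted cells, or the sex of the animals.

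The CC chemokines Ccl3 and Ccl4 are released mainly by activated microglia and macrophages and act on receptors such as Ccr1, and Ccl2 and Ccl7 attract monocytes through Ccr2. Cxcl1 attracts neutrophils through Cxcr2, and Cxcl10 is an interferon-induced ligand of Cxcr3. Cxcl12 is made steadily by meninges, vessels and some neurons and acts on Cxcr4 and Ackr3, Cxcl14 is a constitutively made chemokine of epithelia and brain, and the neuronal, membrane-anchored Cx3cl1 signals to Cx3cr1 on microglia. Inflammatory members are switched on through NF-kB, while the others are mostly constitutive. Along the chromosomes, Ccl2 lies next to Ccl7 and Ccl3 next to Ccl4 among protein-coding genes.

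RefSeq promoters (build GRCm38.p6, 250 bases before to 50 bases after the gene's start, written 5′ to 3′ on the gene's strand) were found for 6 of the 9 genes. Those of Ccl3, Cxcl1 and Cxcl10 are shown, because Ccl3 is the member with the widest differences here, and Cxcl1 and Cxcl10 are the members whose promoters held the NF-kB consensus motif, marked in capitals.
Ccl3 (chr11:83649329-83649628, minus strand): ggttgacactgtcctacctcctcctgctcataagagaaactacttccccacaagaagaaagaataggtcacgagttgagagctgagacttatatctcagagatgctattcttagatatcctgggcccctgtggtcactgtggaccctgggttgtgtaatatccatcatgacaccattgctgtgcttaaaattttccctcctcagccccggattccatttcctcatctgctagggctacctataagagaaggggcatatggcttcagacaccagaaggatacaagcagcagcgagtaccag
Cxcl1 (chr5:90890995-90891294, plus strand): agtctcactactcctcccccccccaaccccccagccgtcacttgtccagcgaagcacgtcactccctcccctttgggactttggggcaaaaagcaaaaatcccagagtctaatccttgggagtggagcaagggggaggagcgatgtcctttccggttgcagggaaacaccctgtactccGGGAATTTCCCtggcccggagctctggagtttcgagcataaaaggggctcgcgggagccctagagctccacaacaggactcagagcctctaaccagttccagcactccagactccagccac
Cxcl10 (chr5:92348840-92349139, minus strand): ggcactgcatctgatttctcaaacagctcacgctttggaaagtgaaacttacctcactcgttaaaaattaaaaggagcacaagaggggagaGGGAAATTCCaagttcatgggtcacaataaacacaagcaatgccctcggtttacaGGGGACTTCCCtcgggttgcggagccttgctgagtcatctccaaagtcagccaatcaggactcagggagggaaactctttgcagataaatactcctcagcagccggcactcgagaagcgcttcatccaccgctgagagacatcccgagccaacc

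On both strands, the NF-kB consensus motif was found in 8.46% of all 32851 promoters of this length, the AP-1 motif TGANTCA in 7.81%, the C/EBP palindrome TTGCNNAA in 10.8% and the interferon response element core (GAAA, any 2 bases, GAAA) in 3.44%. In Cxcl1, matches of the NF-kB motif on both strands overlapped, the upstream one starting 71 bases before the gene's start. In Cxcl10 they began 159 bases before the start and, overlapping each other, 104 and 103 bases before it, and the same promoter held the interferon core and the AP-1 motif. The Cxcl14 promoter held the interferon core. None of these 4 motifs was found in the windows of Ccl3, Cxcl12 and Cx3cl1, which says only that those letters are not in these windows.

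Values are MAS5 signals, a linear brightness per probe set in arbitrary units. Array totals were 3226820 to 3453160, and correlations of log2(signal + 16) were 0.943 to 0.981 between arrays of 1 group and 0.947 to 0.97 between groups. The array number, 3 per group, limits the precision. Defining markers of motor neurons were weak on these arrays: of 9 with a probe set, 2 were brighter than the background defined below (Isl2 at 59.5 and Prph at 26.9), and Slc18a3, Slc5a7, Isl1 and Mnx1 averaged 7.9 to 13.4. Skeletal muscle transcripts stood out on SMA 1 and SMA 2, where 9 muscle markers summed to 2555 and 3203 against 80.6 to 193 on the other arrays. Xist, expressed from the inactive X of females, read 366 to 740 on the transplanted SMA arrays, 601 and 880 on SMA 1 and SMA 2, 47.6 on SMA 3 and 23.5 to 32.9 on the wild-type arrays. Sex by Xist and group cannot be told apart between transplanted SMA and wild type.

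Of the 13 probe sets, 7 belonging to 5 genes lay in the brighter 50% of all probe sets that were fitted (mean log2(signal + 16) of at least 5.63). Background was also judged by 52 probe sets of 36 genes that are silent in spinal cord, such as those of liver, testis and pancreas, whose mean signals had a median of 8.52 and a 90th percentile of 24.4. By either measure 6 probe sets were near background: the single ones of Ccl2 (mean 18.9 over 9 arrays), Ccl7 (10.1), Cxcl10 (5.18) and Cxcl1 (4.52), and the dimmer ones of Cx3cl1 (6.31 and 1.77). Cxcl14 was brightest, with means of 136 and 128 at percentiles 78.9 and 77.9 of all probe sets. It was followed by Cxcl12 (96.2 and 55.8), the bright Cx3cl1 probe set (62.9), Ccl3 (52.1) and Ccl4 (38.6, percentile 52.4). Signals do not compare amounts between genes, since probe sets bind with unlike strength and no length scaling exists here.

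**Figure D1:**
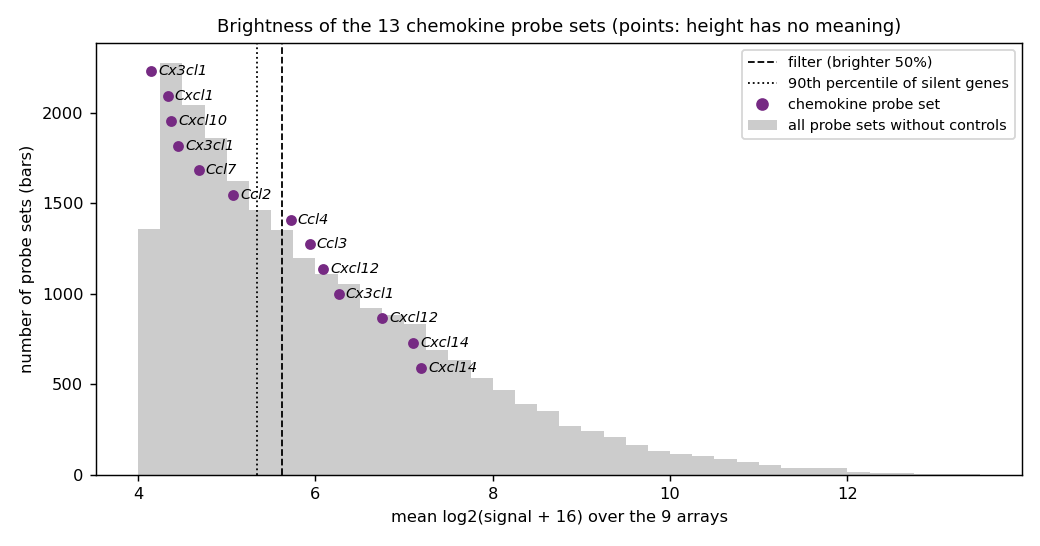
Grey bars count all probe sets without controls by mean log2(signal + 16) over the 9 arrays, and each point places 1 of the 13 chemokine probe sets on the horizontal axis. The dashed line is the filter, and the dotted line marks a signal of 24.4, the 90th percentile of silent genes. 6 chemokine probe sets lie left of both lines.

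Background itself differed between groups. Of the 36 silent genes, 30 were higher in transplanted SMA than in wild type and 6 lower, and the sums of these groups did not overlap. The silent genes summed to 443 to 595 on transplanted SMA arrays, 396 to 572 on SMA arrays and 297 to 417 on wild-type arrays, and their 52 probe sets had median log2 differences of 0.13 for transplanted SMA minus wild type, 0.11 for transplanted SMA minus SMA and 0.03 for SMA minus wild type. Among all probe sets under the filter, 10.3% had every transplanted SMA array above every wild-type array, and 7.22% every SMA array above every wild-type array. For transplanted SMA above SMA the share was 6.29%. Among the 52 silent probe sets the shares were 13.5%, 7.69% and 11.5% in the same order. Differences of the 6 dim chemokine probe sets have to be read beside these shares.

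Ccl3, a macrophage inflammatory protein, was higher on every SMA and transplanted SMA array than on any wild-type array. Its signals were 93.2, 62.6 and 91.9 in transplanted SMA, 73.5, 58.5 and 35.8 in SMA, and 13.9, 19.1 and 20.1 in wild type. On the log2(signal + 16) scale these are 6.77, 6.30 and 6.75 in transplanted SMA, 6.48, 6.22 and 5.69 in SMA, and 4.90, 5.13 and 5.17 in wild type. All wild-type arrays lay under the 90th percentile of silent genes, so Ccl3 passed the filter through its levels in the SMA animals, and its wild-type level is close to background. Transplanted SMA and SMA overlapped, since transplanted SMA 2 lay under SMA 1. Mean signals were 82.6 ± 17.3 in transplanted SMA, 55.9 ± 19 in SMA and 17.7 ± 3.33 in wild type (SD, n = 3 each). Transplanted SMA was at 1.48 times the SMA mean, and no ratio to wild type is given because the wild-type arrays lay under the background bound.

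In log2(signal + 16) the Ccl3 difference was 1.54 (SE 0.23) for transplanted SMA minus wild type, 1.06 (SE 0.23) for SMA minus wild type and 0.47 (SE 0.23) for transplanted SMA minus SMA. The differences from wild type start from a level not above background, so their size is uncertain. With SMA 1 and SMA 2 left out, SMA minus wild type was 0.63 and transplanted SMA minus SMA 0.91. With SMA 3 left out they were 1.28 and 0.26. With log2 Xist as a covariate the difference was 1.01 for transplanted SMA minus wild type, 0.66 for SMA minus wild type and 0.35 for transplanted SMA minus SMA. Within groups Xist varied most between SMA 3 and the other SMA arrays, which also held the muscle transcripts. These adjusted values therefore do not separate sex from group.

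Ccl4, the neighbour of Ccl3 and a ligand of overlapping receptors, showed the same order of groups in a narrower range. Signals were 68, 43.4 and 46.3 in transplanted SMA, 53.4, 27.9 and 34.6 in SMA, and 19.4, 27.3 and 27.1 in wild type. All SMA arrays lay above wild type, though SMA 2 at 27.9 was close to wild type 2 at 27.3, and the transplanted SMA and SMA arrays overlapped. The wild-type level was at the background bound of 24.4, with a mean of 24.6 and wild type 1 below it, so Ccl4 too passed the filter through the SMA groups. Log2 differences were 0.74 (SE 0.22) for transplanted SMA minus wild type, 0.41 (SE 0.22) for SMA minus wild type and 0.34 (SE 0.22) for transplanted SMA minus SMA. The SMA minus wild type value was 0.22 without SMA 1, and transplanted SMA minus SMA ranged from 0.18 without transplanted SMA 1 and 0.19 without SMA 2 to 0.52 without SMA 1.

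Ccl2, the main attractant of monocytes, had the same order close to background. It read 29.7, 25.3 and 27 in transplanted SMA, 25.2, 19.6 and 17.8 in SMA, and 3.9, 11.6 and 9.6 in wild type. The 3 groups did not overlap in these signals, although transplanted SMA 2 and SMA 1 were almost equal. The transplanted SMA arrays and SMA 1 lay just above the background bound of 24.4, and all other arrays under it. The log2 difference was 0.84 for transplanted SMA minus wild type, 0.61 for SMA minus wild type and 0.24 for transplanted SMA minus SMA. Ccl7, another ligand of Ccr2 and the neighbour of Ccl2, stayed at background with overlapping groups: 13.4, 14.9 and 2.7 in transplanted SMA, 11.5, 12.7 and 10.1 in SMA, and 5.7, 5.5 and 14 in wild type.

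The 3 CC chemokines Ccl2, Ccl3 and Ccl4 also ranked animals alike within some groups. Transplanted SMA 1 was highest and transplanted SMA 2 lowest of its group for each of them, SMA 1 was highest of the SMA arrays for each, and wild type 1 lowest of the wild-type arrays. Over the 9 arrays Pearson's r of log2(signal + 16) was 0.96 between Ccl2 and Ccl3, 0.90 between Ccl2 and Ccl4 and 0.87 between Ccl3 and Ccl4. These values include the differences between groups and are a description.

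**Figure D2:**
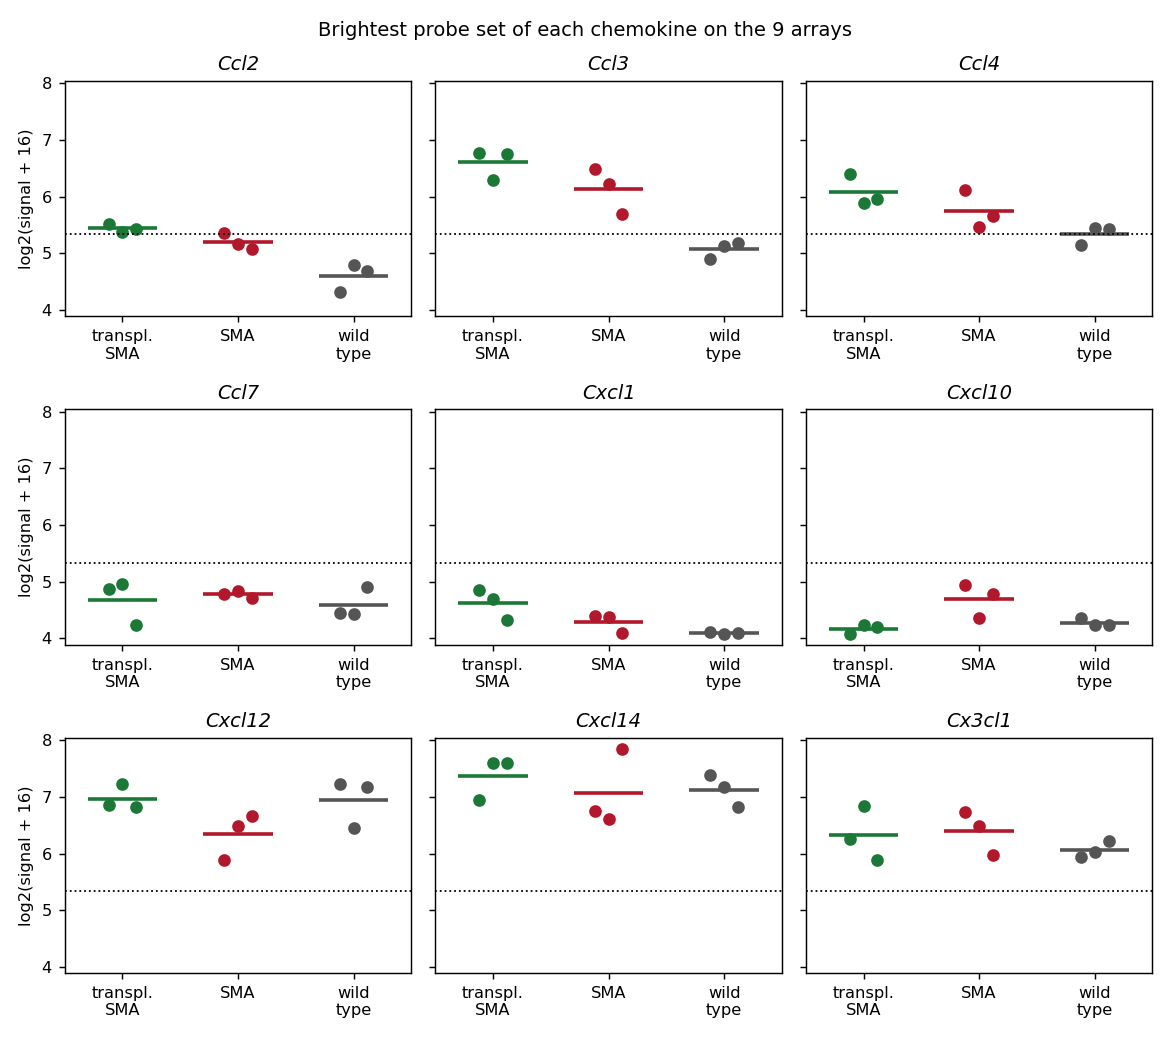
Each panel shows log2(signal + 16) of the brightest probe set of 1 chemokine, with a point per array, a line at the group mean, and groups in the order transplanted SMA, SMA and wild type. The dotted line marks a signal of 24.4, the 90th percentile of silent genes. Ccl3 shows the widest separation of wild type from the other groups, while Ccl7, Cxcl1 and Cxcl10 stay under the dotted line on all arrays.

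The inflammatory CXC chemokines were at background. Cxcl1 read 13, 10 and 3.9 in transplanted SMA, 4.9, 4.8 and 1 in SMA, and 1.2, 0.8 and 1.1 in wild type. The transplanted SMA arrays lay above all wild-type arrays, but every value was under the 90th percentile of silent genes, and the log2 difference of these groups was 0.53. Cxcl10 read 0.9, 2.8 and 2.3 in transplanted SMA, 14.8, 4.4 and 11.4 in SMA, and 4.4, 2.8 and 2.8 in wild type. Its transplanted SMA arrays lay below all SMA arrays (log2 difference -0.52), all of them under the same background bound. Values this dim cannot show whether Cxcl10 followed Ccl3.

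Cxcl12, which guides and retains cells that carry Cxcr4, had probe sets that did not move together (r = 0.25 over the 9 arrays). The brighter one read 99.7, 133.1 and 97.4 in transplanted SMA, 43.3, 73.5 and 85.5 in SMA, and 133.7, 71 and 128.4 in wild type. SMA arrays were below all transplanted SMA arrays and overlapped wild type, and the log2 differences were 0.62 (SE 0.26) for transplanted SMA minus SMA, -0.60 (SE 0.26) for SMA minus wild type and 0.02 (SE 0.26) for transplanted SMA minus wild type. Without SMA 1 the first was 0.39 and the second -0.37, and without SMA 1 and SMA 2 they were 0.30 and -0.28.

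The dimmer Cxcl12 probe set read 125.4, 53.8 and 36.5 in transplanted SMA, 32.2, 47.3 and 70.7 in SMA, and 43.4, 46.8 and 45.8 in wild type, with all groups overlapping. Its high value lay on transplanted SMA 1, the array with the highest summed signals of 10 endothelial markers (1897, against 474 to 1475 on the others) and of 9 meningeal and fibroblast markers (7942, against 932 to 4823). The part of these cells in the Cxcl12 signal was not tested. Without that array its difference for transplanted SMA minus SMA was -0.08, against 0.32 (SE 0.33) with it.

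Cxcl14 lay above the background bound on every array. Its brighter probe set read 106.8, 177.1 and 177.6 in transplanted SMA, 91.8, 81.5 and 215.1 in SMA, and 151.2, 127.7 and 96.6 in wild type. Its dimmer probe set read 139.3, 172.9 and 143.7 in transplanted SMA, 130.8, 43.1 and 164.2 in SMA, and 90.9, 116.3 and 154.4 in wild type. The groups overlapped at both, and differences lay between -0.21 (SE 0.36) and 0.53 (SE 0.36) over both probe sets and all comparisons.

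Cx3cl1, the neuronal ligand of microglial Cx3cr1, read 60.4, 99.2 and 43.3 in transplanted SMA, 90, 73.2 and 46.7 in SMA, and 45.5, 49 and 58.7 in wild type at its bright probe set. The groups overlapped in every comparison. The log2 difference was 0.27 for transplanted SMA minus wild type, 0.33 for SMA minus wild type and -0.06 for transplanted SMA minus SMA (SE 0.26 each). A dim probe set read 15.9, 6.8 and 6.9 in transplanted SMA, 3.3, 2.8 and 12.7 in SMA, and 3.3, 2.4 and 2.7 in wild type, all under the background bound. The other dim one read 0.8 to 3.9 on all arrays.

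Counted over the 13 probe sets, 5 had every transplanted SMA array above every wild-type array (Ccl2, Ccl3, Ccl4, Cxcl1 and the brighter of the dim Cx3cl1 probe sets) and 0 below, where 8.72% of all probe sets were higher and 4.97% lower in this sense. For SMA against wild type 3 were higher (Ccl2, Ccl3 and Ccl4) and 0 lower, beside 6.27% and 4.34% of all. For transplanted SMA against SMA 2 were higher (Ccl2 and the brighter Cxcl12 probe set) and 1 lower (Cxcl10), beside 5.36% and 4.28%. As the genes were listed from these groups, nothing is read from these counts. The comparisons share arrays, so a group that lies low or high by chance enters more than 1 of them.

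In the limma fit over 11313 probe sets, 0 of the 7 chemokine probe sets passed an adjusted p of 0.05 in any comparison. Over all probe sets 0.0442% passed in SMA minus wild type, 0% in transplanted SMA minus SMA and 0% in transplanted SMA minus wild type. At an unadjusted p under 0.05 there were 2 (Ccl3 and the brighter Cxcl12 probe set), 1 (the brighter Cxcl12 probe set) and 2 (Ccl3 and Ccl4) chemokine probe sets in the same order of comparisons, beside 6.04%, 4.77% and 6.55% of all. These counts come from the differences by which the genes were chosen, and Ccl3 and Ccl4 reached the filter through the SMA groups, so nothing is read from them. A chemokine probe set that did not pass is not shown to be equal between groups.

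**Figure D3:**
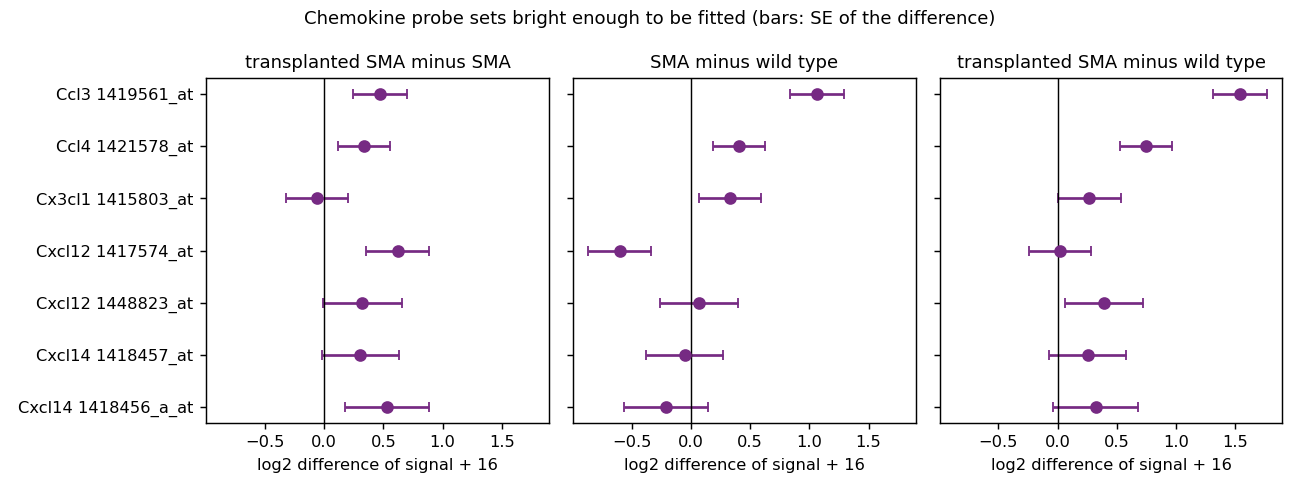
Log2 differences of signal + 16 (points, with the SE of the difference from the limma fit as bars) for the 7 chemokine probe sets past the filter, in 3 comparisons. Ccl3 stands furthest from 0 in transplanted SMA minus wild type (1.54) and SMA minus wild type (1.06), and the brighter Cxcl12 probe set lies on opposite sides in transplanted SMA minus SMA (0.62) and SMA minus wild type (-0.60).

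Receptors of these chemokines were mostly too dim to compare. Of 29 probe sets of 21 chemokine receptor genes, 6 passed the filter. Cx3cr1, the microglial receptor of Cx3cl1, read 450.5, 387.2 and 807.3 in transplanted SMA, 1348.3, 1043.5 and 1103.5 in SMA, and 613.7, 1271.2 and 1464.9 in wild type. Transplanted SMA arrays lay below all SMA arrays and overlapped wild type 1, with log2 differences of -1.13 (SE 0.33, limma adjusted p = 0.933) for transplanted SMA minus SMA and -0.98 (SE 0.33, adjusted p = 0.698) for transplanted SMA minus wild type.

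Ccr1, a receptor of Ccl3, read 31.4, 15.7 and 31.7 in transplanted SMA, 49.1, 72.8 and 36.8 in SMA, and 19.3, 45.9 and 58 in wild type at its brighter probe set. Its values went opposite to Ccl3 between transplanted SMA and SMA, at -0.70 (SE 0.30, limma adjusted p = 0.933). Ccrl2, a decoy-like receptor that microglia and other cells induce in inflammation, read 50.5, 61.5 and 69.4 in transplanted SMA, 14.9, 28.6 and 56.5 in SMA, and 21.5, 23 and 31.3 in wild type. Its differences were 0.71 (SE 0.28, adjusted p = 0.933) for transplanted SMA minus SMA and 0.89 (SE 0.28, adjusted p = 0.631) for transplanted SMA minus wild type.

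Ackr3, the scavenger of Cxcl12, read 41.4 to 49.4 in transplanted SMA, 23.3 to 58.6 in SMA and 22 to 61.4 in wild type. Cxcr4, the signalling receptor of Cxcl12, averaged 9.61 over the 9 arrays, and the brightest probe set of Ccr2 15.1, Cxcr2 10.4 and Cxcr3 19.6, all under the background bound.

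Over the 4 lists of other chemokine system genes, which hold receptors, other ligands, inflammatory inducers, and receptor signalling and ligand processing, 165 probe sets named 1 of 106 genes and 59 passed the filter. In each of the 3 comparisons 0 of the 59 passed limma's adjusted p of 0.05. At an unadjusted p under 0.05 there were 9 higher and 1 lower in transplanted SMA minus wild type, 5 higher and 1 lower in SMA minus wild type, and 3 higher and 2 lower in transplanted SMA minus SMA. Over all 11313 probe sets there were 370 higher and 371 lower, 307 higher and 376 lower, and 262 higher and 278 lower in this order of comparisons. Median differences of the 59 were 0.11, 0.15 and -0.02 in this order, beside -0.01, 0.01 and 0.00 over all 11313 probe sets. Several probe sets of the single gene Nfkbia were among those higher in both comparisons with wild type, so these are not counts of genes. The lists were also chosen with earlier results of these data known, and nothing is read from the counts or medians.

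By list, median differences in transplanted SMA minus wild type were 0.13 for 21 probe sets of inflammatory inducers, 0.15 for 6 of other chemokine ligands, -0.06 for 6 of receptors and 0.04 for 26 of receptor signalling and ligand processing. In SMA minus wild type they were 0.18, 0.41, 0.21 and 0.09, and in transplanted SMA minus SMA 0.02, -0.21, -0.04 and 0.00 in the same order of lists.

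**Figure D4:**
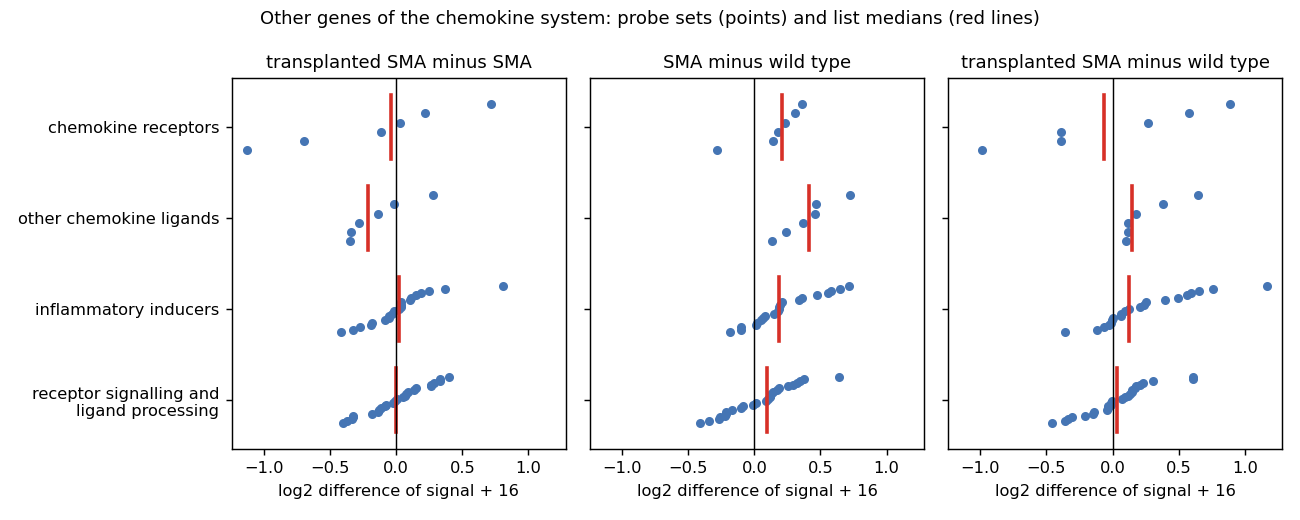
Points are log2 differences of signal + 16 for the 59 probe sets of other chemokine system genes past the filter, by list, and red lines are list medians. In transplanted SMA minus wild type Zfp36 (1.17) lies furthest to the right and Cx3cr1 (-0.98) furthest to the left.

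Named by the size of their unadjusted p, Nfkbia, the inhibitor that NF-kB itself induces, read 133.3, 127.9 and 178.9 in transplanted SMA, 98.2, 155.1 and 153.6 in SMA, and 92.1, 74.1 and 71.9 in wild type at the probe set with the smallest p. Every SMA and transplanted SMA array was above wild type there, with differences of 0.76 (SE 0.21, limma adjusted p = 0.523) for transplanted SMA minus wild type and 0.65 (SE 0.21, adjusted p = 0.656) for SMA minus wild type. The brightest probe set of Nfkbia read 1025.4 to 1807.6 in transplanted SMA, 1004.1 to 1708.2 in SMA and 721.5 to 921.2 in wild type. Another gave 0.71 (SE 0.26, adjusted p = 0.724) for SMA minus wild type.

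Zfp36, which destabilises mRNAs of cytokines and chemokines, read 241.3, 142.8 and 182.6 in transplanted SMA, 88.2, 131.8 and 81.7 in SMA, and 47.8, 58.9 and 133 in wild type. Its differences were 1.17 (SE 0.31, limma adjusted p = 0.523) for transplanted SMA minus wild type and 0.81 (SE 0.31, adjusted p = 0.933) for transplanted SMA minus SMA. In SMA minus wild type, a probe set of Stat3, a transcription factor of cytokine signalling, gave 0.58 (a further, about equally bright one gave 0.08), the chemokine Ccl9 0.72 and the G protein subunit Gnai1 -0.41 (adjusted p of 0.732, 0.752 and 0.752). The Ccl9 groups overlapped there, and its other probe set, under the background bound, gave 0.07. The brightest Gnai1 probe set gave -0.21 and the dimmest -0.27. In transplanted SMA minus SMA the named Gnai1 probe set gave 0.40 (adjusted p = 0.933), the brightest 0.29 and the dimmest 0.27. Cxcl17, a mucosal chemokine, gave 0.64 (adjusted p = 0.699) in transplanted SMA minus wild type.

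The inducing cytokines were dim. Tnf, which switches on Ccl2, Ccl3 and Cxcl1 through NF-kB, read 10, 30.2 and 29.3 in transplanted SMA, 18.4, 15.2 and 5.4 in SMA, and 1.8, 1.7 and 5.8 in wild type, with a mean of 13.1 under the background bound. Il1b read 26.8 to 39.9 in transplanted SMA, 20.5 to 41.1 in SMA and 21.5 to 29.6 in wild type, and failed the filter.

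Markers of microglia, which can release Ccl3 and Ccl4, were set beside these genes. Of 20 listed markers 18 had a probe set and 17 passed the filter. On their lowest arrays Itgam (8), Trem2 (13.3), Fcer1g (15.7) and Aif1 (22.7) lay under the background bound of 24.4. Their summed signal was 6794 to 14164 in transplanted SMA (median 6877), 13575 to 14981 in SMA (median 14677) and 8304 to 17427 in wild type (median 12720). The Ccl3 signals of 93.2, 62.6 and 91.9 in transplanted SMA stood beside microglial sums of 6877, 6794 and 14164. Those of 73.5, 58.5 and 35.8 in SMA stood beside 14677, 13575 and 14981, and those of 13.9, 19.1 and 20.1 in wild type beside 8304, 12720 and 17427. Of the 18 markers, 17 were lower in mean in transplanted SMA than in SMA (median difference -0.80) and 16 lower than in wild type (median -0.48). In SMA minus wild type 13 were higher and 5 lower (median 0.21). The part of microglia in the chemokine signals was not tested. In bulk captures fewer cells of a type and less RNA per cell cannot be told apart.

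**Figure D5:**
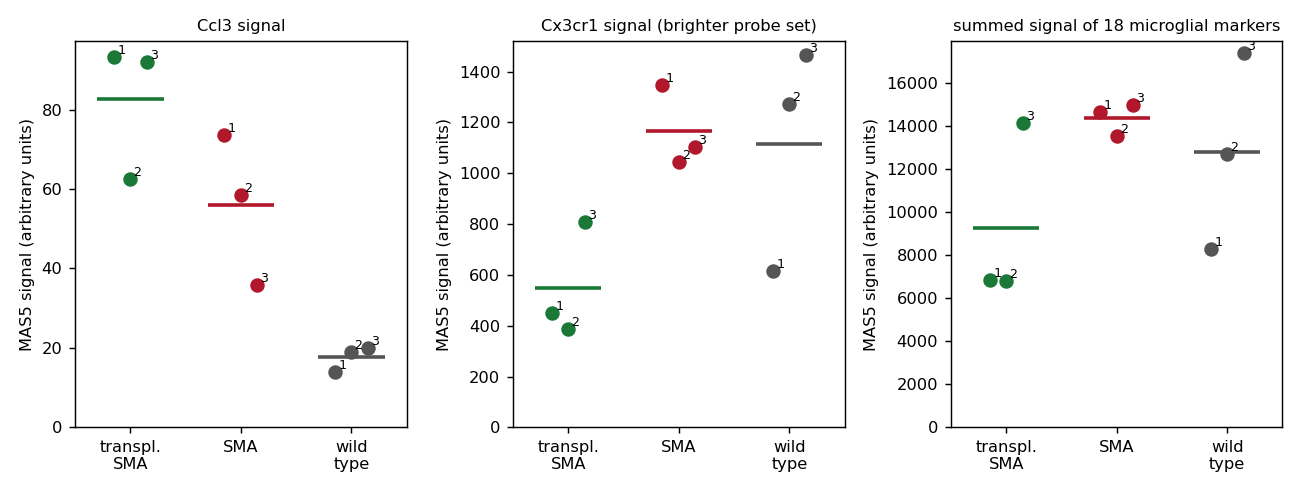
MAS5 signals per array, with the array number beside each point and a line at the group mean, for Ccl3, the bright probe set of Cx3cr1 and the sum over 18 microglial markers. Ccl3 is lowest in wild type (13.9 to 20.1), whereas Cx3cr1 and the microglial sum are lowest on transplanted SMA 1 and transplanted SMA 2.

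Of 9 meningeal and fibroblast markers, 8 were higher in transplanted SMA than in wild type (median difference 0.57), 7 in SMA than in wild type (median 0.33) and 7 in transplanted SMA than in SMA (median 0.40). These differences had the order of groups of Ccl3, but the median summed signals did not. They were 1785 in transplanted SMA, 3031 in SMA and 1311 in wild type. Transplanted SMA 1 summed to 7942, and transplanted SMA 2 and transplanted SMA 3 to 1785 and 1764. Of 10 endothelial markers, 9 were higher in transplanted SMA than in wild type (median 0.48), 4 in SMA than in wild type (median -0.04) and 10 in transplanted SMA than in SMA (median 0.60). Summed signals of 8 perivascular macrophage and monocyte markers were 298 to 614 in transplanted SMA, 426 to 1215 in SMA and 318 to 682 in wild type, and those of 11 neutrophil and lymphocyte markers 581 to 2355, 980 to 7522 and 536 to 1950. The highest SMA sum of both lists lay on SMA 2 alone. On SMA 1 and SMA 3 the first list summed to 426 and 561 and the second to 980 and 1195. In SMA minus wild type 7 of the 8 were higher and 1 lower (median 0.45), and 9 of the 11 higher and 2 lower (median 0.42). In transplanted SMA minus SMA 1 of the 8 was higher and 7 lower (median -0.33), and 5 of the 11 higher and 6 lower (median -0.47). Summed signals of further lists follow. For 10 astrocyte markers they were 9776 to 15326, 9232 to 16279 and 9400 to 11553, and for 10 endothelial markers 890 to 1897, 506 to 1475 and 474 to 1000, in the same order of groups. Meningeal and fibroblast markers summed to 1764 to 7942, 1745 to 3084 and 932 to 4823, neuron markers to 1789 to 4356, 1544 to 3099 and 2222 to 2617, motor neuron markers to 148 to 316, 119 to 205 and 105 to 197, and oligodendrocyte markers to 25729 to 34423, 18452 to 32021 and 23910 to 27546. In each of these lists the ranges of transplanted SMA and of SMA overlapped that of wild type, and the part of any of these cells in the chemokine signals was not tested.

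The named non-member probe sets whose log2 signals followed Ccl3 most closely over the 9 arrays were those of Ptprv (Pearson's r = 0.94), Pithd1 (0.93), Slc25a28 (0.93), Cdkn1a (0.93) and Tmem259 (0.92). Cdkn1a, an inhibitor of the cell cycle, averaged 118 in transplanted SMA, 114 in SMA and 16 in wild type. The nearest to Ccl4 were Sars2 (0.96), Ubac2 (0.96) and Necap2 (0.94), to the brighter Cxcl12 probe set Lima1 (0.97), Nedd1 (0.96) and Ndufb8 (0.95), to Cxcl14 Rap2c (0.93), Kpna1 (0.91) and Pfkp (0.91), and to Cx3cl1 Erdr1 (0.95), Tro (0.93) and Rian (0.93). These are the highest values among all named probe sets past the filter on 9 arrays that share their groups, and they describe likeness alone.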

How the data were processed

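Per the submitters' processing notes, the authors made the values with MAS5, and they deposited 1 linear intensity for each probe set and array. Its version, scaling target and detection calls: not given in the sources used here. Per the labels' protocols, caps held about 100 cells, every array had its own animal, and RNA was amplified in a small-sample procedure. No column lacked a sample, and 0 pairs of columns were identical.

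From the 22690 probe sets, 64 controls were left out. After adding 16, signals were taken to log2. The brighter 50% by mean over all arrays, 11313 probe sets, entered limma (version 3.58.1, R version 4.3.3), using lmFit and a trended eBayes with 1 mean per group, 6 residual degrees of freedom, two-sided tests, Benjamini-Hochberg adjustment over all of them and a threshold of 0.05. The procedure was tested on simulated data. Genes were named from the platform annotation where a probe set had 1 symbol.

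The 9 genes and all lists were chosen with earlier results of these data known. Other chemokine system genes were named when past the threshold or among the 5 smallest unadjusted p under 0.05 per comparison. Receptors of the members, Tnf and Il1b were always named where a probe set named them alone. Marker sums take each gene's brightest probe set. Alternatives covered normalization, pseudocount, filter, eBayes trend, array weights, the sample number as a block, the 6 arrays compared, each array left out, and 3 settings chosen after seeing the data.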

Additional observations from a re-analysis of the deposited data

How the results depend on the processing

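Under 22 other settings, the count of chemokine probe sets past the threshold stayed at 0 in SMA minus wild type and in transplanted SMA minus SMA, and the count for other chemokine system genes stayed at 0 in all comparisons. In transplanted SMA minus wild type the chemokine count was 0 in the main setting and 1, Ccl3, with array weights, with only the 6 arrays compared (1) and without SMA 1 and SMA 2 (1, chosen after seeing the data). Leaving out each array in turn gave 0 to 1, the 1 being without SMA 3. The cause was not tested. Ccl3 was picked out by these same differences from a wild-type level not above background, so its passing is no evidence for it.

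With the sample number as a replicate block the count was 0 in every comparison. All differences stayed as they were, which a balanced block gives by construction. Deviations of same-numbered arrays correlated at -0.08 to 0.45, and those of differently numbered arrays at -0.47 to 0.33. Whether the numbers pair the samples was not tested.

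Differences of Ccl2, Ccl3 and Ccl4 kept their sign in all 22 settings and all comparisons. Much of this was fixed beforehand, so nothing is read from it. Groups did not overlap for Ccl2 in any comparison, or for Ccl3 and Ccl4 against wild type. Leaving out arrays or changing the pseudocount could not turn those signs, and the filter and eBayes trend do not enter the differences. The Ccl3 difference ranged from 0.84 to 2.15 for transplanted SMA minus wild type, from 0.54 to 1.56 for SMA minus wild type and from 0.26 to 0.91 for transplanted SMA minus SMA. The ends of the first 2 ranges came from pseudocounts of 64 and 1, which shrink or stretch dim signals by construction. Signal over background limits the wild-type levels of Ccl3 and Ccl4, and Ccl2, Ccl7, Cxcl1 and Cxcl10 in all groups. For the last 4 genes the array gives little more than an order of dim values, and only Ccl2 passed the background bound on any array.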
